A study of Mus musculus with 19 samples.

Results

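The histone cluster genes are the genes for the replication-dependent histones, which lie in the Hist1, Hist2 and Hist3 gene clusters of the mouse genome. Every row of the expression table whose symbol begins with Hist1h, Hist2h or Hist3h was taken, which gave 70 of 47643 rows. They comprised 6 rows for the linker histone H1, 20 for H2A, 20 for H2B, 12 for H3 and 12 for H4. By cluster, 56 rows belonged to Hist1, 11 to Hist2 and 3 to Hist3.

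RNA sequencing of mouse cortex at embryonic day E14.5 compared 4 mutant dorsal libraries with 6 control dorsal libraries, and 4 mutant medial libraries with 5 control medial libraries. The mutants were GFAP::Cre; SmoM2 embryos and the controls were wildtype embryos. SmoM2 is a form of Smoothened, the transducer of the Hedgehog signal, that is always active, and it is switched on only in cells that expressed Cre from the GFAP driver and in their descendants. In developing cortex such drivers act in radial glial progenitors. Because the controls are labelled wildtype, effects of the driver and of SmoM2 cannot be told apart. The tissue label reads dorsal or medial cortex, whereas the extraction protocol names medial or lateral pieces. Separate embryos within a group are not stated in the labels, and p-values therefore measure the spread among these libraries, part of which may be technical. Libraries of 1 genotype with the same title number varied together in both regions and are called 1 embryo here. Smo had 110.4 to 154 TPM in mutant dorsal and 73.4 to 91.5 TPM in control dorsal libraries, and 158 to 183 TPM in mutant medial and 107 to 134 TPM in control medial libraries; Gli1, a Hedgehog target, lay above 24 TPM in every mutant library and below 1.1 TPM in every control library. By their Ddx3y and Xist levels, all 8 mutant libraries were male, as were 3 of 6 control dorsal and 2 of 5 control medial libraries. Values are TPM, transcript levels per unit length scaled to a total of 1000000 per library, and sequencing depth is unknown.

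Replication-dependent histone genes are transcribed in S phase, when the newly copied DNA has to be packed into nucleosomes. H2A, H2B, H3 and H4 form the nucleosome core, and H1 binds the linker DNA between nucleosomes. Their mRNAs have no introns and, unlike other mRNAs, end in a conserved stem-loop in place of a poly(A) tail; the stem-loop binding protein Slbp recognises that structure, and Npat activates transcription of the clusters. In the embryonic cortex S phase occurs in progenitors and not in postmitotic neurons. In whole-tissue RNA, a change in the number of cells of a type and a change in RNA per cell cannot be told apart.

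The stem-loop is shown because it is the feature of these transcripts that the symbol rule did not use. In GENCODE M21 transcripts of the GRCm38 build, 45 of the 69 placed members contained one within 21 to 58 bases after the stop codon. Stem bases are in capitals and loop bases in lower case; each stem-loop is 16 bases long, 5′ to 3′. There were 8 distinct forms. The 5 that occurred in more than 1 member are printed here.
26 members of H1, H2A, H2B and H3: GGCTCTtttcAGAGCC
6 members of H1, H2B and H3: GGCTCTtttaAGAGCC
6 members of H4: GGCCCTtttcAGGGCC
2 members of H4 (Hist1h4i and Hist2h4): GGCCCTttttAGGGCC
2 members of H4 (Hist1h4b and Hist1h4j): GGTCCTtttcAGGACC
The stem separated H4 from the other types. All 34 non-H4 members with a stem-loop had the 5′ arm GGCTCT, whereas of the 11 H4 members 9 had GGCCCT and 2 had GGTCCT. A member with no match may still end in a stem-loop, since 12 of the annotated models hold coding bases only.

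RefSeq promoters on GRCm38.p6, spanning 250 bases before to 50 bases after the start of a gene, were matched for 61 members. The window of Hist1h2bk, the H2B gene with the highest mean level, also covers nearly all of the space up to the divergently transcribed H2A gene Hist1h2ah. The windows of Hist1h4d, among the H4 genes with the highest levels, and of Hist1h2ap, the H2A gene with the highest mean level, are shown beside it. Capitals mark the TATA box TATAAA, the CCAAT box CCAAT and the octamer ATTTGCAT, each on either strand. Windows are placed by RefSeq starts, which can differ from the GENCODE starts behind the gene coordinates and pair distances given here; the GENCODE start of Hist1h2bk is the last base of its window.
Hist1h2bk, chr13:22035571-22035870, plus strand: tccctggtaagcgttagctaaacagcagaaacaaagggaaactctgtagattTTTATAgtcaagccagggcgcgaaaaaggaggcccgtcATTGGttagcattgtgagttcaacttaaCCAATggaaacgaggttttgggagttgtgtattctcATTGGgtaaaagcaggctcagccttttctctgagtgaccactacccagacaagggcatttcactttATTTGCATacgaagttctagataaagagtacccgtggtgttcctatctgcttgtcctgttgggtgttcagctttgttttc
Hist1h4d, chr13:23581318-23581617, plus strand: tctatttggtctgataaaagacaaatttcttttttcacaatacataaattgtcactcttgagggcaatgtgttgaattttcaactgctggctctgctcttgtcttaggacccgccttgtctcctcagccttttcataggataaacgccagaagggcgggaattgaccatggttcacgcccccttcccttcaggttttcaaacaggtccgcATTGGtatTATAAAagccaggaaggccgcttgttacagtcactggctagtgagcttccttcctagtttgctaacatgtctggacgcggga
Hist1h2ap, chr13:21833426-21833725, minus strand: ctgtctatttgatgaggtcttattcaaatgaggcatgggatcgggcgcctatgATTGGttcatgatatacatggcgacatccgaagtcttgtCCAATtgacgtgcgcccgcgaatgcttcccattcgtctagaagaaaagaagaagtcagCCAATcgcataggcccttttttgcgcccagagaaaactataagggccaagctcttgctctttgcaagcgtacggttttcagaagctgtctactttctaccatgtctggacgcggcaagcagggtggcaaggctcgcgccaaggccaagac
TATAAA was present in 35 of the 61 members' windows (57.4%), against 13.62% of all 32851 promoters. CCAAT was present in 53 (86.9%), against 37.41% of all promoters; it occurred in every H1, H2A, H2B and H3 window but in 3 of 11 H4 windows. ATTTGCAT was present in 14 windows (23.0%), against 1.74% of all promoters, and those 14 were 7 H2A and 7 H2B genes. These are matches to letters and not measured binding sites. Windows of divergent H2A and H2B genes can overlap, so the same match can count for both genes, as for ATTTGCAT at Hist1h2ah and Hist1h2bk. Members with and without ATTTGCAT had median log2 changes of 0.82 and 0.80 in mutant against control dorsal cortex, and of 0.66 and 0.70 in medial cortex.

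The summed TPM of every histone type was higher in mutant than in control cortex, in both regions, with no overlap between the libraries of the 2 genotypes. All members together made up 11.2% of all TPM in mutant dorsal libraries (mean of 4 libraries, 100386 to 125364 TPM), against 6.46% in control dorsal libraries (mean of 6, 58270 to 72621 TPM). In medial cortex they made up 12.4% in mutants (123292 to 124826 TPM) and 7.73% in controls (67595 to 86729 TPM). The ratio of mutant to control mean was 1.73 dorsally and 1.61 medially. As a sum over chosen rows this carries no p-value. Within male libraries alone the log2 ratio of the summed level was 0.77 dorsally and 0.70 medially, against 0.79 and 0.69 over all libraries.

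**Figure D1:**
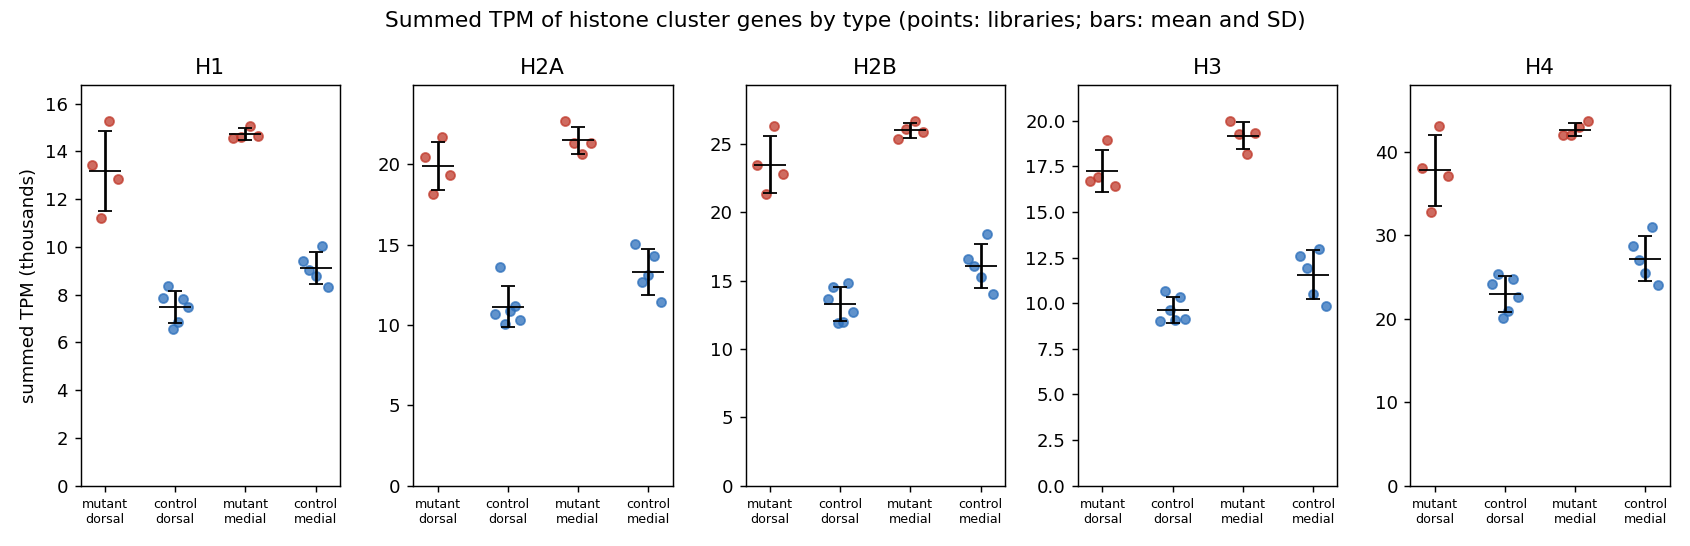
Summed TPM, in units of 1000 TPM, of the histone cluster genes of each type in each library (points), with mean and SD (bars), for mutant dorsal, control dorsal, mutant medial and control medial cortex. For each type every mutant library lies above every control library of the same region, with ratios of means from 1.57 to 1.79.

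H1 genes summed to 13418.7, 11192.2, 15252.6 and 12850.5 TPM in mutant dorsal libraries, against a lowest of 6542.5 and a highest of 8358.5 TPM in control dorsal libraries, a mean of 13179 ± 1675 TPM in mutant dorsal and 7491 ± 676 TPM in control dorsal libraries (SD, n = 4 and 6). H2A genes summed to 19889 ± 1513 TPM in mutant dorsal and 11127 ± 1272 TPM in control dorsal libraries. H2B genes summed to 23503 ± 2105 TPM in mutant dorsal and 13298 ± 1260 TPM in control dorsal libraries. The H3 sum was 17240 ± 1157 TPM in mutant dorsal and 9649 ± 711 TPM in control dorsal libraries, and the H4 sum was 37798 ± 4233 TPM in mutant dorsal and 22985 ± 2139 TPM in control dorsal libraries. Dorsal ratios thus ran from 1.64 for H4 to 1.79 for H2A.

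The medial sums followed the same order of types. They were 14721 ± 238 TPM in mutant medial and 9117 ± 656 TPM in control medial libraries for H1 (SD, n = 4 and 5). For H4 they were 42657 ± 809 TPM in mutant medial and 27224 ± 2724 TPM in control medial libraries. Medial ratios ran from 1.57 for H4 to 1.66 for H3.

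The proportions among the types varied within narrow ranges. H1 took 11.1% to 12.3% of all member TPM over the 19 libraries. H4 took 38.3 ± 1.06% of the core histone TPM in mutant dorsal and 40.3 ± 1.17% in control dorsal libraries (SD, n = 4 and 6), ranges that overlap. The ratio of summed H4 to summed H3 ran from 1.94 to 2.67 over all libraries, and that of H2A to H2B from 0.754 to 0.933. The nucleosome core holds these histones in equal numbers, so the TPM sums were not in the proportions of the proteins. TPM are RNA levels divided by annotated length, such as 312 bases for Hist1h4k and 2620 bases for Hist2h2be. The part of annotated length in these ratios was not tested. Expression was also spread over many genes: the 5 rows with the highest means held 23.0% to 28.7% of all member TPM.

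Single rows were tested with limma on log2(TPM + 1), over the 13520 rows that reached 1 TPM in 4 or more libraries; a row was called at an adjusted p under 0.05. Of the 70 members, 65 passed that filter. The others were Hist1h2aj, Hist3h2bb-ps and a second row for Hist2h2bb, listed at 0 in all libraries, and Hist1h2aa and Hist1h2ba, which lay below the filter.

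In dorsal cortex 56 of the 65 were higher in mutants than in controls and 0 were lower, where 9.93% of all tested rows were higher and 27.6% lower, 37.5% together. No member was lower at an unadjusted p under 0.05 either. The members' median log2 change was 0.80, against -0.10 for all tested rows. In 48 members the mutant dorsal libraries all lay above the control dorsal libraries, as they did in 7.25% of all rows. By type, 5 of 6 H1, 15 of 18 H2A, 14 of 17 H2B, 11 of 12 H3 and 11 of 12 H4 rows were higher.

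In medial cortex 54 of the 65 were higher in mutants and 0 were lower, where 9.44% of all tested rows were higher and 30.2% lower, 39.6% together; again 0 were lower at an unadjusted p under 0.05. The median log2 change was 0.70, against -0.11 for all rows. Groups did not overlap in 48 members, against 7.63% of all rows. By type, 5 of 6 H1, 15 of 18 H2A, 14 of 17 H2B, 10 of 12 H3 and 10 of 12 H4 rows were higher. In both regions 53 members were higher, 3 were called in dorsal cortex alone and 1 in medial cortex alone. Among male libraries alone, 49 members were higher dorsally and 46 medially. The share of all tested rows called in that smaller fit is not given here.

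TPM are shares of a fixed total, so a group of rows that takes a larger share lowers all the others. After rescaling libraries by median ratios, 51% of all called rows were higher in mutant dorsal cortex, against 26.5% as deposited, and in medial cortex 47.7%, against 23.8% as deposited. Under that rescaling 56 members were higher dorsally, where 15.4% of all tested rows were higher, and 55 medially, where 15.8% were. Quantile normalization moved the median change of all rows in medial cortex to -0.0071, against -0.11 as deposited, and left 54 members higher dorsally, where 1959 of the 13520 tested rows were higher, and 50 medially, where 2164 were. Scaling to non-member TPM takes the members out of the total. It gave 46.1% of all called rows higher dorsally and 40.2% medially, with median changes of -0.034 and -0.045 for all rows.

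**Figure D2:**
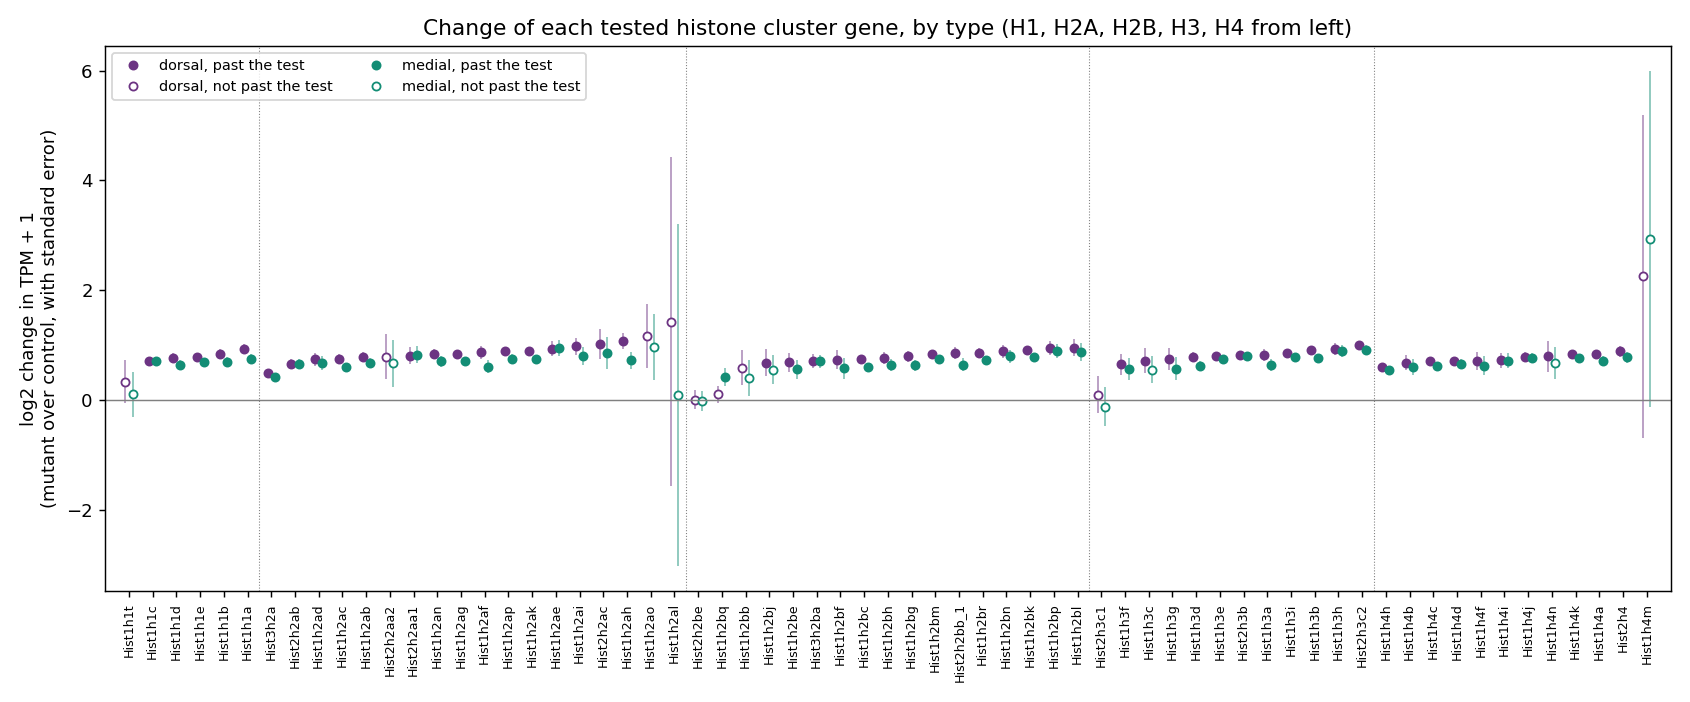
Log2 change in TPM + 1 of each of the 65 tested members, mutant over control, in dorsal (purple) and medial (green) cortex, with the standard error from limma; filled points passed an adjusted p of 0.05 and open points did not. Most members lie between 0.4 and 1.2 in both regions, and the rows with long bars, Hist1h2al and Hist1h4m, were near 0 in some libraries and above 1000 TPM in others.

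Among the linker histones, Hist1h1e (chr13:23620629-23622558) had the highest mean level. It had 3160, 2818, 3896 and 3157 TPM in mutant dorsal libraries, against a lowest of 1683, a median of 1888 and a highest of 2060.0 TPM in control dorsal libraries. Every mutant library lay above every control library, with a log2 change of 0.79 ± 0.07 (standard error, adjusted p = 2.56e-07). In medial cortex the change of Hist1h1e was 0.69 ± 0.08 (adjusted p = 2.58e-06). Hist1h1d changed by 0.77 ± 0.09 dorsally and 0.64 ± 0.10 medially, and Hist1h1a by 0.93 ± 0.09 dorsally and 0.74 ± 0.09 medially, the largest H1 change in each region. Hist1h1t, the testis-specific H1 gene, stood at 1.36 ± 1.01 TPM in mutant dorsal and 0.901 ± 0.863 TPM in control dorsal libraries, and did not pass the test in either region (adjusted p = 0.540 dorsally and 0.864 medially).

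Among H2A genes, Hist1h2ap (chr13:21833026-21833507) had 3564, 3085, 3699 and 3205 TPM in mutant dorsal libraries, against a lowest of 1651, a median of 1801 and a highest of 2116 TPM in control dorsal libraries. In medial cortex it had 3826, 3798, 3415 and 3722 TPM in mutants, against 2404, 2166, 2163, 2320 and 1902 TPM in controls. The groups did not overlap in either region, and the log2 changes were 0.89 ± 0.07 (adjusted p = 5.75e-08) and 0.75 ± 0.07 (adjusted p = 8.53e-07). Hist1h2ab changed by 0.79 ± 0.08 dorsally and 0.67 ± 0.09 medially. Hist3h2a, of the small cluster on chromosome 11, had the smallest dorsal H2A change, 0.49 ± 0.08 (adjusted p = 8.04e-05), with 445 ± 13.4 TPM in mutant dorsal and 317 ± 32.3 TPM in control dorsal libraries. Its medial change was 0.41 ± 0.08 (adjusted p = 0.00051).

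Among H2B genes, Hist1h2bk (chr13:22035870-22036345) had 5304, 4993, 6155 and 5382 TPM in mutant dorsal libraries, against a lowest of 2691, a median of 2796 and a highest of 3315 TPM in control dorsal libraries. Its medial values were 5893, 6198, 6373 and 5943 TPM in mutants, against 3823, 3687, 3556, 3494 and 3216 TPM in controls. Each mutant library lay well above each control library, with changes of 0.91 ± 0.07 (adjusted p = 2.07e-08) and 0.78 ± 0.07 (adjusted p = 2.52e-07). Hist1h2bl had the largest dorsal H2B change, 0.95 ± 0.16, and Hist1h2bp the largest medial one, 0.90 ± 0.13. Hist1h2bg changed by 0.80 ± 0.10 dorsally and 0.63 ± 0.10 medially.

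Hist2h2be (chr3:96221119-96223738) was 1 of 3 H2B rows that did not pass the dorsal test, with Hist1h2bb and Hist1h2bq. It had 26.4, 22.5, 27.9 and 32.0 TPM in mutant dorsal libraries, against a lowest of 21.5, a median of 24.4 and a highest of 37.0 TPM in control dorsal libraries. The groups overlapped, and the changes were 0.003 ± 0.18 dorsally (adjusted p = 0.990) and -0.02 ± 0.18 medially (adjusted p = 0.955). In human cells the counterpart of this gene is known to make polyadenylated transcripts outside S phase as well. Its annotated transcript is 2620 bases long, and TPM divides by length. Among other members with long annotated transcripts, Hist1h2ac (2482 bases) averaged 766 TPM, Hist3h2a (2146 bases) 376 TPM and Hist2h3c1 (1820 bases) 10.1 TPM. The part of length in the level of Hist2h2be was not tested. Hist2h2ac, the divergent H2A neighbour of Hist2h2be, 239 bases away from start to start, changed by 1.03 ± 0.28 dorsally (adjusted p = 0.00753). Its level varied widely within groups, from 261 to 594 TPM in control dorsal libraries. The dorsal call of Hist2h2ac held in all 32 other settings. Its medial call (0.86, adjusted p = 0.0238) was lost in 5 of 32.

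Among H3 genes, Hist1h3h had the highest mean level, with 3247 ± 227 TPM in mutant dorsal and 1722 ± 250 TPM in control dorsal libraries, a log2 change of 0.93 ± 0.11 (adjusted p = 4.86e-06). Hist1h3b changed by 0.91 ± 0.07 dorsally and 0.77 ± 0.07 medially, and Hist1h3i by 0.86 ± 0.07 dorsally and 0.78 ± 0.07 medially. The largest H3 change was that of Hist2h3c2 (chr3:96238108-96239127). It had 804, 1020, 1050 and 855 TPM in mutant dorsal libraries, against a lowest of 439, a median of 452 and a highest of 520.4 TPM in control dorsal libraries. The 2 ranges are far apart, and the changes were 0.99 ± 0.09 (adjusted p = 1.24e-07) dorsally and 0.92 ± 0.09 (adjusted p = 8.01e-07) medially.

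Among H4 genes, Hist1h4h (chr13:23531050-23531519) had the highest mean level of all members. It had 7469, 6445, 7959 and 7035 TPM in mutant dorsal libraries, against a lowest of 4216, a median of 4811 and a highest of 5402 TPM in control dorsal libraries. Without overlap between the groups, its change was the smallest among H4 rows in both regions, 0.60 ± 0.07 dorsally (adjusted p = 3.4e-06) and 0.55 ± 0.07 medially (adjusted p = 1.67e-05). Hist1h4d changed by 0.71 ± 0.08 dorsally (adjusted p = 3.48e-06) and 0.66 ± 0.09 medially (adjusted p = 1.53e-05).

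Members of every cluster were higher in mutants, where 9.93% of all tested rows were higher dorsally and 9.44% medially. On chromosome 13, 20 of 23 tested members between 21715763 and 22043676 were higher in mutant dorsal cortex, with a median change of 0.86, and 27 of 29 between 23531050 and 23934851, with a median of 0.75. In medial cortex the counts were 19 of 23 (median 0.75) and 26 of 29 (median 0.62). In the Hist2 cluster on chromosome 3, 7 of 10 were higher in each region, and in the Hist3 cluster 2 of 2.

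H2A and H2B genes lie in divergent pairs that share the sequence between their starts. There were 14 such pairs, 173 to 306 bases apart from start to start, and in 11 of them both genes were tested. Both genes were higher in mutants in 9 of the 11 dorsally and in 8 of the 11 medially. Single members were higher in 56 of 65 cases dorsally and in 54 of 65 medially, against 9.93% and 9.44% of all tested rows. Whether paired genes moved together beyond the rate of single members was not tested. Hist1h2ah and Hist1h2bk, whose shared sequence is printed above, differed between mutants and controls by 1.08 and 0.91 (log2) dorsally and by 0.73 and 0.78 medially. Their levels differed: Hist1h2ah averaged 437 TPM over all libraries and Hist1h2bk 4285 TPM. Among the 11 pairs H2B had the higher mean in 6.

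Many histone genes are near-identical copies, and reads from one copy can be assigned to another. The 66 members with an annotated coding sequence had 61 distinct coding sequences, and 5 pairs were identical throughout: Hist1h2ao with Hist1h2ap, Hist1h2bq with Hist1h2br, Hist1h4m with Hist1h4n, Hist2h2aa1 with Hist2h2aa2, and Hist2h3c1 with Hist2h3c2. How the authors divided reads between copies is not given in the sources used here, so single rows of these pairs are uncertain. In 3 pairs the table put almost all TPM on 1 copy. Hist1h2ao averaged 11.1 TPM in mutant dorsal libraries while Hist1h2ap averaged 3388 TPM. Hist1h2ao (adjusted p = 0.129), Hist1h2bq (adjusted p = 0.639) and Hist2h3c1 (adjusted p = 0.855) are among the 9 rows that did not pass the dorsal test. Hist1h2bq passed the medial test (0.42 ± 0.16, adjusted p = 0.0410) at levels under 4 TPM, a call that was lost in 10 of 32 other settings, among them embryo as a random block (0.41, adjusted p = 0.0744).

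The pair Hist1h4m and Hist1h4n divided differently from embryo to embryo. Hist1h4m stood at 3236 and 2759 TPM in mutant dorsal libraries 3 and 4 and at 1803 and 2988 TPM in control dorsal libraries 1 and 5, but between 0 and 14.46 TPM in each dorsal or medial library of the other embryos. In medial cortex it stood at 3057 and 3232 TPM in mutants 3 and 4 and at 3650 TPM in control 5. The split therefore recurred in both regions of an embryo and occurred in both genotypes. Added together, the pair had 7216, 6673, 8789 and 7950 TPM in mutant dorsal libraries, against 4012 to 4984 TPM in control dorsal libraries. The sums did not overlap in either region, with ratios of means of 1.70 dorsally and 1.63 medially. Hist1h4m alone did not pass (adjusted p = 0.588 and 0.477), and Hist1h4n passed dorsally (0.80 ± 0.28, adjusted p = 0.0328) and had 0.68 ± 0.29 medially (adjusted p = 0.0714). With embryo as a random block Hist1h4n passed medially (0.70, adjusted p = 0.0271), and its dorsal call was lost in 7 of 32 other settings, among them quantile normalization (0.56, adjusted p = 0.176).

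Hist1h2al (chr13:51202727-51203065) is annotated as a processed pseudogene, and 65.5% of its 50-base stretches also occur in Hist2h2aa1 and Hist2h2aa2. It had 3194, 2472, 2385 and 0.518 TPM in mutant dorsal libraries, against a lowest of 1.22 and a highest of 3159 TPM in control dorsal libraries. Libraries below 5 TPM were those of mutant 4 and of controls 1 and 5, in each region sampled, and the groups overlapped. Hist2h2aa2 was highest in mutant 4 and likewise varied, at 2443, 1794, 3030 and 4318 TPM in mutant dorsal libraries, against a lowest of 683 and a highest of 2771 TPM in control dorsal libraries. Neither row passed the test in either region. Summed, the 2 rows had 4909 ± 719 TPM in mutant dorsal and 2781 ± 592 TPM in control dorsal libraries, without overlap.

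**Figure D3:**
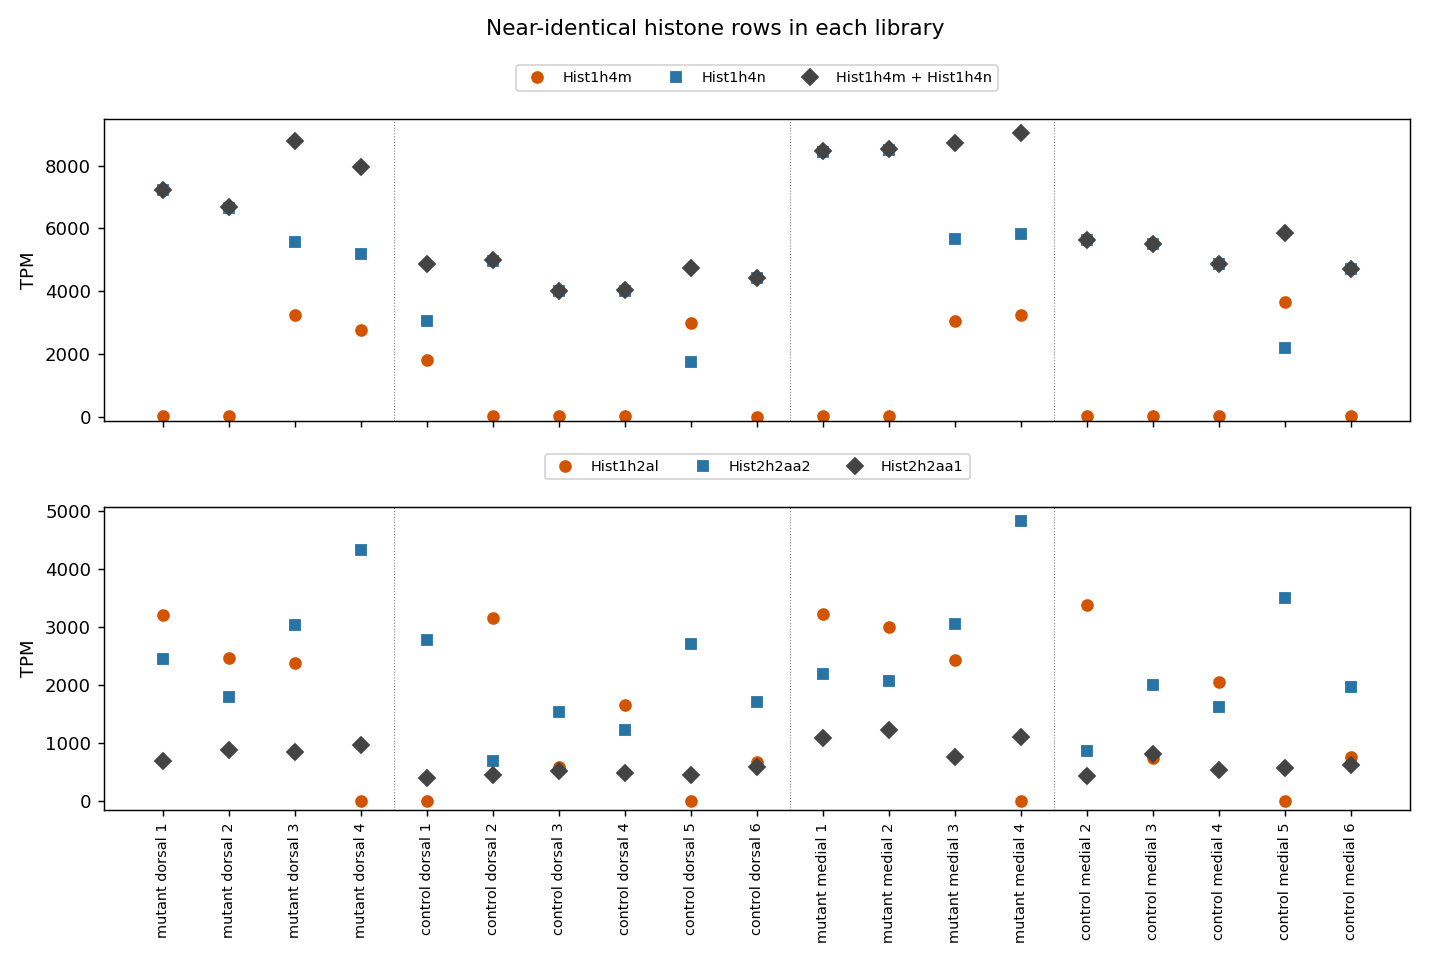
TPM of near-identical rows in each library, with groups in the order mutant dorsal, control dorsal, mutant medial and control medial, divided by dotted lines. Above, Hist1h4m (circles) is near 0 except in mutants 3 and 4 and controls 1 and 5, where Hist1h4n (squares) is lower than in its group, and their sum (diamonds) separates the genotypes; below, Hist1h2al (circles), Hist2h2aa2 (squares) and Hist2h2aa1 (diamonds).

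Control embryo 5 was far from the other controls at single members. In both of its regions 11 members exceeded the mean of the other controls by over 1.5 times and 3 lay below that mean by the same factor. Rows of divided copies were among them, Hist1h4m and Hist2h2aa2 above and Hist1h4n and Hist1h2al below. The same count was not made for other embryos or over all rows, so whether this embryo is unusual was not tested. Hist1h2bb had 1478 TPM in control dorsal library 5, against 437 to 564 TPM in the other control dorsal libraries, and 1784 TPM in control medial library 5, against 563 to 659 TPM in the others. Hist1h2bj was 2.20 and 2.34 times and Hist1h3c 2.11 and 2.17 times the mean of the other controls, dorsally and medially, while Hist1h2bl was 0.585 and 0.604 times that mean. Summed over all members, control dorsal library 5 had 68906 TPM, inside the range of the other control dorsal libraries, and control medial library 5 had 86729 TPM, the highest control medial value.

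Several calls changed without that embryo. Hist1h2bb did not pass in dorsal cortex, at 900.1 ± 64.3 TPM in mutant dorsal and 664 ± 401 TPM in control dorsal libraries, and its change became 0.85 (adjusted p = 1.45e-07) without control embryo 5. With the embryo kept as a random block it still did not pass (adjusted p = 0.0895). The medial change of Hist1h2bj was 0.56 with it (adjusted p = 0.0976) and 0.80 without it (adjusted p = 7.14e-06), and that of Hist1h3c was 0.55 with it (adjusted p = 0.0770) and 0.78 without it (adjusted p = 9.82e-06). Both also passed medially with control embryo 5 kept and embryo as a random block, Hist1h2bj at 0.57 (adjusted p = 0.0467) and Hist1h3c at 0.57 (adjusted p = 0.0318), and Hist1h3c passed after median-ratio rescaling (adjusted p = 0.0440). Leaving this embryo out of both regions, a choice made after seeing the data, gave 57 members higher dorsally and 58 medially. For that fit the share of all rows called is not given here.

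**Figure D4:**
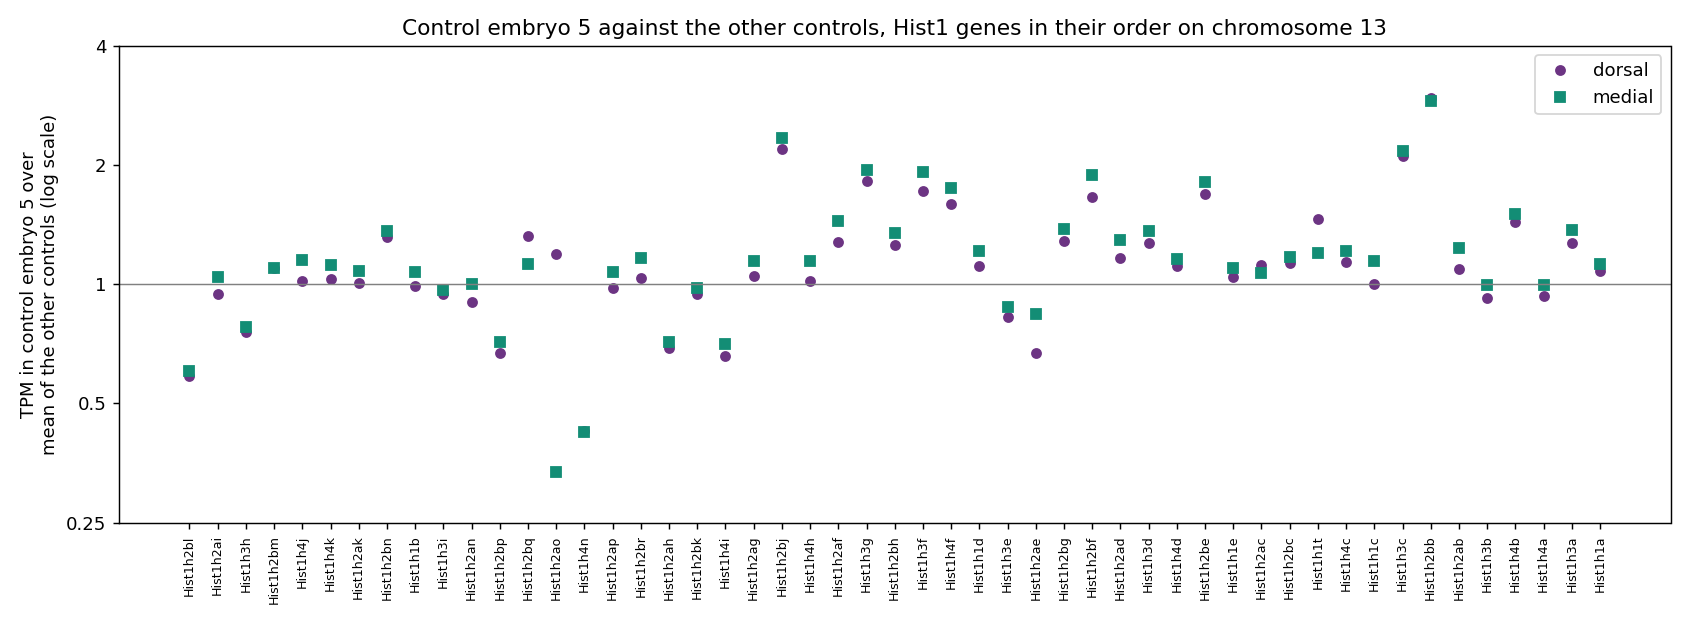
TPM of each tested Hist1 member in control embryo 5 divided by the mean of the other controls of the same region (log scale), dorsal (circles) and medial (squares), in gene order along chromosome 13. Hist1h4m and Hist1h2al are not drawn. Dorsal and medial values lie close together for most members, with Hist1h2bb, Hist1h2bj and Hist1h3c above 2 in both regions.

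The change in mutants did not differ detectably between regions. The medial minus dorsal difference passed for 0 of 65 members in limma, and for 0 at an unadjusted p under 0.05, where 0.0074% of all rows passed upward. The difference was negative in 61 of 65, with a median of -0.12, against -0.02 for all rows.

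Between regions, members were higher in medial than in dorsal control cortex in 29 of 65 cases and lower in 0, also at an unadjusted p under 0.05, where 17.6% of all rows were higher and 14.9% lower, 32.4% together. The median change was 0.27, against 0.01 for all rows, and groups did not overlap in 4 members, all higher, against 11.1% of all rows higher and 9.39% lower. Hist1h2ak had 875, 838, 800.1, 881 and 754 TPM in control medial libraries, against a lowest of 627, a median of 671 and a highest of 777 TPM in control dorsal libraries. The ranges overlap, and its change was 0.28 ± 0.05 (adjusted p = 0.00076). Hist1h4a changed by 0.35 ± 0.07 (adjusted p = 0.000918) and Hist1h1b by 0.38 ± 0.08 (adjusted p = 0.00146), without overlap. With embryo as a random block the count was 42. It was 18 without control medial library 2, and 0 in male libraries alone, of which 2 were control medial and 3 control dorsal. Shares of all rows called in these other fits are not given here.

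In mutants, 0 of 65 members passed between medial and dorsal cortex in limma, 7 were higher and 0 lower at an unadjusted p under 0.05, and 8.03% of all rows were higher. The median change was 0.16. Groups did not overlap in 4 members, all higher in medial cortex, against 7.11% of all rows higher and 8.05% lower. With embryo as a random block 12 were higher, and without mutant dorsal library 3, the mutant dorsal library with the highest sums of every type, 9 were. Neither count has the share of all rows in its fit beside it. Summed over all members, mutant medial libraries had 124045 ± 758 TPM and mutant dorsal libraries 111608 ± 10405 TPM (SD, n = 4 each), and the ranges overlap.

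Among genes outside the clusters, the list of S-phase replication genes moved with the members. All 25 tested were higher in mutants in each region, with median changes of 0.83 dorsally and 0.70 medially. Of all tested rows, 9.93% were higher dorsally and 9.44% medially. Rrm2, a subunit of the enzyme that makes deoxyribonucleotides, changed by 1.22 ± 0.08 dorsally (adjusted p = 5.43e-09) and 1.04 ± 0.08 medially. Cdt1, which loads the replicative helicase, changed by 1.15 ± 0.07 and 0.97 ± 0.07 dorsally and medially, and Cdc45, a part of that helicase, by 1.17 ± 0.07 and 0.94 ± 0.08. Cdk6, the cyclin-dependent kinase named in the study's title, changed by 1.51 dorsally (adjusted p = 1.18e-05) and 2.25 medially (adjusted p = 3.24e-07).

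The machinery that makes and ends histone mRNA changed in part. Of 17 tested genes, 6 were higher and 1 lower dorsally, and 5 were higher and 1 lower medially. The shares of all tested rows were 9.93% higher and 27.6% lower dorsally, and 9.44% and 30.2% medially. Slbp had 73.2, 72.6, 84.7 and 73.8 TPM in mutant dorsal libraries, and 48.4 ± 2.12 TPM in control dorsal libraries (SD, n = 6). It rose by 0.64 ± 0.05 dorsally (adjusted p = 7.85e-08) and by 0.60 ± 0.06 medially. E2f1, a transcription factor of the G1 to S transition, rose by 1.23 ± 0.10 and 1.13 ± 0.11, and Eri1, an exonuclease that trims histone mRNA, by 0.26 ± 0.05 in each region. Npat changed by 0.10 ± 0.05 dorsally (adjusted p = 0.121) and 0.12 ± 0.05 medially (adjusted p = 0.0703), and passed the dorsal test after median-ratio rescaling (0.19, adjusted p = 0.00529) and the medial test (0.22, adjusted p = 0.00204). Lsm11, a protein of the particle that cuts histone mRNA and named after its values were seen, was the 1 lower gene (-0.36 ± 0.10 dorsally and -0.27 ± 0.10 medially). Its medial limma call was lost after that rescaling (adjusted p = 0.160) and under many other settings. Among these were quantile normalization (adjusted p = 0.225), no filter (adjusted p = 0.0652), male libraries (adjusted p = 0.0724) and several single libraries left out.

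Histone chaperones, which carry histones to DNA, were higher for 12 of 22 and lower for 1 of 22 in each region. Among all tested rows 9.93% were higher and 27.6% lower dorsally, and 9.44% and 30.2% medially. Chaf1a and Chaf1b, subunits of the replication-coupled assembly factor, changed by 0.85 ± 0.09 and 0.82 ± 0.08 dorsally and by 0.75 ± 0.09 and 0.69 ± 0.08 medially. Asf1b changed by 1.07 ± 0.11 dorsally and 0.78 ± 0.12 medially. Atrx, which with Daxx places replacement H3 outside S phase and was named after its values were seen, was the 1 lower gene (-0.28 ± 0.09 dorsally and -0.33 ± 0.09 medially); its dorsal call was lost after median-ratio rescaling (adjusted p = 0.0548).

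Replacement and variant histones, made outside the clusters and mostly polyadenylated, gave a mixed result. Of 12 tested, 6 were higher and 1 lower dorsally, and 6 were higher and 2 lower medially. For all tested rows the shares were 9.93% higher and 27.6% lower dorsally, and 9.44% and 30.2% medially. H2afx, whose transcript can also end in a stem-loop, changed by 0.74 ± 0.05 dorsally (adjusted p = 6.12e-09) and 0.63 ± 0.05 medially. H2afz changed by 0.38 ± 0.05 and 0.40 ± 0.05, and Cenpa, the centromeric H3, by 0.69 ± 0.06 and 0.46 ± 0.07. H3f3a fell by 0.15 ± 0.05 dorsally (adjusted p = 0.0209) and by 0.17 ± 0.05 medially (adjusted p = 0.0120), and passed neither test after median-ratio rescaling (-0.06 dorsally, adjusted p = 0.505, and -0.07 medially, adjusted p = 0.452). H3f3b, with 1312 ± 98.2 TPM in mutant dorsal and 1274 ± 50.2 TPM in control dorsal libraries, did not pass (0.04 ± 0.05 dorsally and -0.02 ± 0.05 medially). Its medial sign turned after median-ratio rescaling (0.082), and its dorsal sign under quantile normalization (-0.056). H1f0 changed by 0.21 ± 0.13 dorsally (adjusted p = 0.207) and 0.14 ± 0.13 medially (adjusted p = 0.431). Mutant 4 had 686 TPM dorsally and 705 TPM medially, against 934 to 1161 TPM in the other mutant libraries. Without mutant dorsal library 4, H1f0 passed the dorsal test (0.36, adjusted p = 0.0219).

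The rows whose log2 TPM followed the members' sum most closely over the 19 libraries were H2afx and Mcm5 (Pearson's r = 0.985 each), Cdk1 (0.984), Dnajc9 (0.983), Mcm10 (0.982), Tyms and Prim1 (0.981 each), and Alyref, Racgap1 and Pole2 (0.980 each). All libraries of both genotypes enter this description, so it largely follows the difference between mutants and controls, and it carries no p-value.

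Markers of other cells are set against the 27.6% of all tested rows that were lower in mutant dorsal cortex and the 30.2% in mutant medial cortex. The shares of rows that were higher were 9.93% dorsally and 9.44% medially. Pan-neuronal markers were lower for 7 of 12 in each region, with summed levels of 2537 to 3766 TPM in mutant dorsal and 3881 to 4579 TPM in control dorsal libraries, and of 1954 to 2541 TPM in mutant medial and 2949 to 3643 TPM in control medial libraries. These neuronal sums did not overlap between genotypes in either region. Cortical progenitor markers were higher for 6 and lower for 3 of 10 dorsally, and higher for 3 and lower for 2 medially. Their summed level was 2970.2 to 3299 TPM in mutant dorsal and 2945 to 3318 TPM in control dorsal libraries, and 3557 to 3954 TPM in mutant medial and 3717 to 4474 TPM in control medial libraries, so the genotypes overlapped in both regions.

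Microglia markers were lower for 4 of 7 dorsally, with sums of 34.0 to 42.8 TPM in mutant dorsal and 49.7 to 69.1 TPM in control dorsal libraries. Medially limma called 0 of 7, and the sums overlapped, at 34.0 to 80.6 TPM in mutant medial and 43.2 to 67.5 TPM in control medial libraries. Erythroid and endothelial markers stayed below the share of all rows, with 1 of 10 and 1 of 7 lower dorsally and 0 of 10 and 0 of 7 called medially. At an unadjusted p under 0.05, 0 microglia, erythroid or endothelial markers passed medially either. Erythroid sums were 4055 to 4995 TPM in mutant dorsal and 4343 to 5999 TPM in control dorsal libraries. Meningeal markers were also below that share, with 2 of 8 lower dorsally and 1 of 8 medially, and their median change was -0.09 dorsally and 0.34 medially. No neuronal, progenitor, erythroid, microglial, endothelial or meningeal marker was at 0 in all libraries. Of 7 male germ cell markers, Prm1 alone passed the filter and was called higher. The list summed to 133 to 386 TPM in mutant dorsal and 1.02 to 2.20 TPM in control dorsal libraries. Nearly all of the mutant sum was Prm1, which averaged 270 TPM over all mutant and 0.173 TPM over all control libraries. Ddx4 averaged 0.382 TPM in mutants and 0.695 TPM in controls, Dazl 0.349 and 0.487 TPM, and Sycp3 0.281 and 0.210 TPM. Prm2 reached at most 0.095 TPM, and Tnp1 and Tnp2 were listed at 0. The list as a whole was therefore not higher, and the source of Prm1 was not tested. The part of these cell types in the change of the histone genes was not tested.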

How the data were processed

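Per the labels' protocols, the RNeasy Micro Kit was used for RNA of dissected cortex, and sequencing libraries came from the TruSeq Stranded Total RNA Kit. The deposited table holds TPM computed by the authors, on genome build mm10 per the submitters' processing notes; aligner, quantifier, annotation and strand setting: not given in the sources used here. Each column sums to 1000000, so depth is unknown and no counting error can be given.

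Libraries were grouped by their titles. TPM + 1 was log2 transformed, and the 13520 rows that reached 1 TPM in 4 or more libraries entered a limma fit (version 3.58.1, under R 4.3.3 with statmod 1.5.0) that had 1 mean per group over all 19 libraries, mean-variance trend and robust settings. Adjusted p-values follow Benjamini and Hochberg over all tested rows, at a threshold of 0.05. The test was tried on simulated data. Values are mean ± SD of TPM, or log2 change ± standard error. Title numbers were checked for pairing on deviations from group means: dorsal and medial libraries of 1 genotype correlated in 9 pairs (r from 0.549 to 0.795), so embryo served as a block in alternatives. Mutant and control libraries of 1 number did not pair (r from -0.436 to 0.138 in 7 pairs).

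The members and the lists of other genes were chosen with earlier results of these data known. Members given with a change, error and adjusted p were, per type, the 3 with the highest mean TPM and those with the largest and smallest change in each region, up to 3 per regional comparison by adjusted p, and up to 4 per list of related genes; Slbp, Npat, H2afz, H3f3a, H3f3b, H1f0, H2afx and Cdk6 were always included. Other members are named where their copies, a divergent partner or 1 library bear on a result. Stem-loops and copies were read from GENCODE M21 transcripts, promoters from RefSeq on GRCm38.p6, with Python 3.11.15; plots used matplotlib 3.10.9. Alternatives covered pseudocounts, filters, scalings, blocks, male libraries (Ddx3y above Xist) and each library left out.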

Additional observations from a re-analysis of the deposited data

Results flagged for a closer look

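Single libraries far from the others of their group were sought in 148 combinations of a row or type sum and a group, and 14 were found. Chance gives about 1 in 20, but the count cannot be compared with that share. Some of the rows, among them Hist1h2bb, Hist1h2bj and Hist1h3c, were included because control embryo 5 was far from the other controls there. Of these, 10 concern control embryo 5. Its Hist1h2bb stood at 1478 TPM dorsally and 1784 TPM medially, its Hist1h2bj at 763 and 1004 TPM, and its Hist1h3c at 922 and 1152 TPM, each the highest of its control group. Control medial library 5 was also highest for Hist1h2bg (2474 TPM), Hist1h4m (3650 TPM) and Hist2h3c1 (17.0 TPM) and lowest for Hist1h4n (2193 TPM). Control dorsal library 2 was highest of its group for Hist1h3b (1638 TPM) and for the H2A sum (13593 TPM). Mutant medial library 1 was lowest for Hist1h2bj (732 TPM, next to 746 TPM), and mutant medial library 3 was highest for the H1 sum (15076 TPM, next to 14636 TPM).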

How the results depend on the processing

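Of 4256 values of members under other settings, 4121 kept their direction and side of the threshold, 72 lost the call, 24 gained it and 39 changed sign; of 1536 values of related genes, 1499 kept both, 23 lost the call, 8 gained it and 6 changed sign. With a single library left out, 53 to 56 members were higher dorsally and 49 to 57 medially, 0 to 9 between regions in mutants and 18 to 35 in controls. Shares or counts over all rows are given only for the main fit, median-ratio rescaling and quantile normalization. For scaling to non-member TPM, only the share of called rows that were higher in mutants is given. Under other settings a change in the members' count may follow the call rate of all rows, which was not compared.

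The count between regions in mutants was 1 under quantile normalization, 1 after scaling to non-member TPM, 1 without control embryo 5, 12 with the embryo as a random replicate block and 2 with the title number as a fixed replicate block. In controls it was 45 with the fixed block and 0 in male libraries; the causes were not tested. Against a main value of 0.69, the medial log2 ratio of the H1 sum was 0.80 (0.796) after median-ratio rescaling; the cause was not tested. The embryo block and the fixed block gave 56 and 58 members higher medially; the fixed block gave 58 dorsally.

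The rows whose sign turned passed the test neither as reported nor under the setting that turned them. Hist2h2be gave -0.18 dorsally in male libraries, and medially 0.082 (median-ratio), 0.096 (quantile), 0.057 (non-member TPM), 0.027 (fixed block) and 0.116 (without control embryo 5); with 1 library left out it ran from -0.076 to 0.092 dorsally and from -0.128 to 0.116 medially. Hist2h3c1 gave -0.139 dorsally in male libraries, and medially 0.040 (quantile), 0.064 (fixed block) and 0.053 (without embryo 5), with leave-one-out ranges of -0.152 to 0.355 and -0.433 to 0.112. Hist1h2bq gave -0.025 dorsally in male libraries and -0.001 to 0.291 with 1 library left out. Hist1h4m gave -0.096 dorsally and -0.037 medially in male libraries. Hist1h1t gave -0.080 medially in male libraries and -0.235 to 0.374 with 1 library left out. Hist1h2al gave medially -0.016 (pseudocount 0.1), -1.237 (fixed block) and -1.513 (without embryo 5), and -1.513 to 2.63 with 1 library left out. H3f3b gave -0.056 dorsally (quantile), 0.082 (median-ratio) and 0.055 (non-member TPM) medially, and with 1 library left out -0.009 to 0.071 dorsally and -0.064 to 0.007 medially.

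Leaving out control embryo 5, and leaving out of the type sums the 5 rows Hist1h4m, Hist1h4n, Hist1h2al, Hist2h2aa2 and Hist2h2ac, were chosen after seeing the data; without those 5 rows the log2 ratio of the summed level was 0.79 dorsally and 0.69 medially. Depth is unknown, so the precision of rows at a few TPM is unknown as well.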
